A study of Homo sapiens with 18 samples.

Results

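HT29 and WiDr, 2 established human colorectal cancer lines, were compared with each other while both were under AZ628, an inhibitor of RAF kinases. The comparison rests on 6 of the 18 arrays of the study, 3 HT29 arrays and 3 WiDr arrays chosen by their labels as AZ628-treated, and covers all 18132 genes measured. The other groups used here are the 3 vehicle arrays of HT29 and the 3 vehicle arrays of WiDr. WiDr arrays with a control short hairpin RNA and with one against IKKα, 3 of each, entered only the estimate of the spread. No label states a dose or an exposure time for AZ628. The series design spells the treated HT29 samples HT28, taken here as a misspelling because the sample titles say HT29. WiDr is held to derive from HT29, so the comparison is between related lines, without further lines of either kind. Nothing in the labels tells whether a group's 3 arrays stem from separate cultures, so p-values refer to array-to-array spread alone, and that spread may be technical.

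RAF kinases carry growth signals from RAS to MEK and then to ERK, and ERK drives immediate early genes such as FOS and EGR1, cyclin D1 and MYC. Both lines are known for a BRAF mutation that keeps this cascade active without an outside signal. HT29 is also known as a line that can take on features of absorptive and mucus-secreting intestinal cells when its growth conditions change. The question was which differences between the lines were present under inhibition, and whether they were also present with vehicle.

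The values are deposited log2 signals, made by RMA, and each gene was read through the brightest of its probe sets on average. A difference is HT29 minus WiDr on the log2 scale, so a positive value means higher in HT29, and 1 unit is a 2-fold change. A gene passed at a limma adjusted p under 0.05 over all genes. Pearson correlations over genes were 0.9971 to 0.9984 between arrays of the same group and 0.9848 to 0.9862 between the lines under AZ628, against 0.9863 to 0.9882 between the lines with vehicle. The number of arrays limits the precision. Epithelial markers were present in both lines: EPCAM, a surface protein of epithelial cells, had a mean of 13.4 in HT29 and 13.2 in WiDr under AZ628, and the median of 12 such markers was 11.82 and 11.65. GPA33, a surface protein of intestinal epithelium, was low in both, and its difference of 0.10 (SE 0.11) did not pass. Of 9 fibroblast markers, whose median level was 4.26 in HT29 and 4.25 in WiDr, only LUM differed (1.80, SE 0.12). Of 8 blood markers only CD68 passed (0.61, SE 0.10), although LYZ, the lysozyme gene, which gut epithelium also expresses, had the highest level at 14.1 and 13.9 and differed by 0.20 (SE 0.10), or by 0.27 (adjusted p = 0.00403) when shared probe sets, those binding several transcripts, were left out. Of 6 endothelial markers only TEK passed (-1.44, SE 0.13). The defining transcripts PTPRC (3.16 and 3.31) and COL1A1 (5.6 and 5.68) lay below the median of all genes, 6.90 in HT29 and 6.88 in WiDr.

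Under AZ628 a total of 6233 of 18132 genes passed (34.4%), 3112 higher in HT29 (17.2%) and 3121 higher in WiDr (17.2%). At least 2-fold differences were found for 563 genes (3.11%), 281 higher in HT29 (1.55%) and 282 higher in WiDr (1.56%). The 3 arrays of one line lay wholly above the 3 of the other for 7822 genes (43.1%). With vehicle 5836 genes passed (32.2%), 3070 higher in HT29 (16.9%) and 2766 in WiDr (15.3%), and 488 differed at least 2-fold (2.69%). The vehicle arrays do not enter the AZ628 differences themselves. Both comparisons share a common estimate of the spread of each gene, so their p-values are not independent. Over all genes the differences under AZ628 and with vehicle had a Pearson correlation of 0.783 and a Spearman correlation of 0.642, given as a description, since genes are not independent replicates and the lines are the same in both.

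Each gene was then sorted by both comparisons and by the test of the difference between them. In 4123 genes (22.7%) the line difference was kept, that is, it passed under AZ628 and with vehicle in the same direction, 2112 higher in HT29 (11.6%) and 2011 higher in WiDr (11.1%). A difference was called new in 519 genes (2.86%), which passed under AZ628, not with vehicle, and changed between the conditions by the direct test, with 246 higher in HT29 (1.36%) and 273 in WiDr (1.51%). It was lost in 396 genes (2.18%), where it passed with vehicle, not under AZ628, and the direct test passed, with 232 formerly higher in HT29 (1.28%) and 164 in WiDr (0.904%). In 145 genes (0.8%) it turned, passing in both comparisons with opposite signs. A further 1446 genes passed only under AZ628 and 1172 only with vehicle without passing the direct test, and these were not sorted. The direct test itself passed for 1667 genes (9.19%), upward, towards HT29, for 736 (4.06%) and downward for 931 (5.13%). Of the 563 genes with at least a 2-fold difference under AZ628, 516 were kept, 43 were new and 4 had turned, and 306 were also at least 2-fold apart with vehicle.

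**Figure D1:**
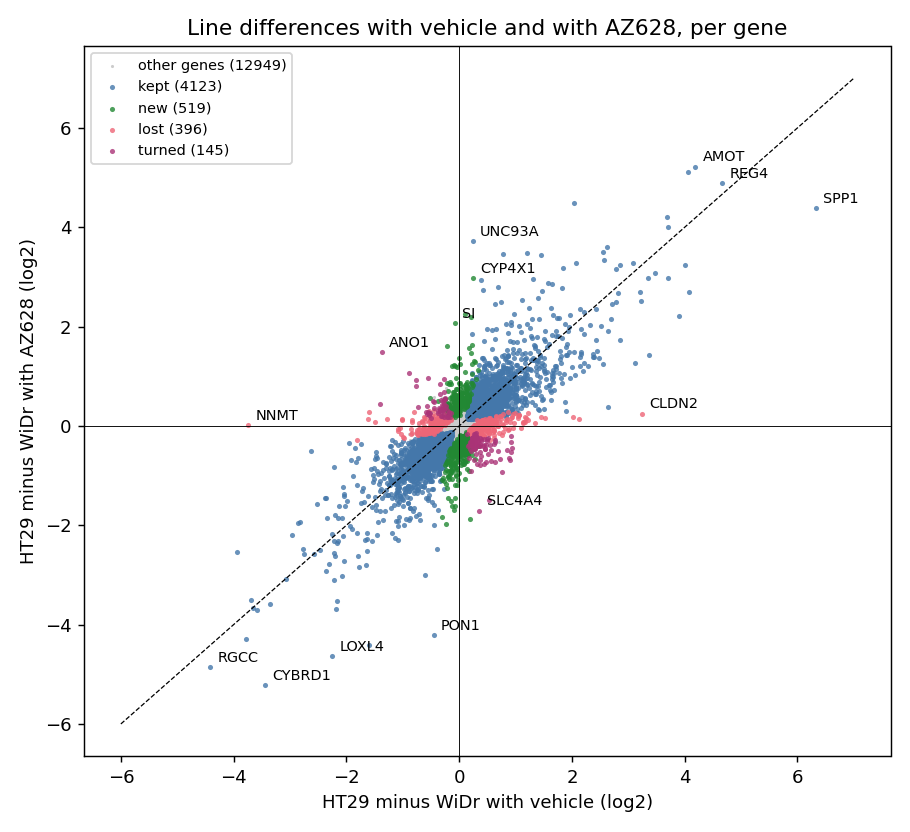
Line difference of each gene with vehicle (horizontal axis) and with AZ628 (vertical axis), both HT29 minus WiDr in log2 units, with kept, new, lost and turned genes in colour and all other genes in grey. The 4123 kept genes follow the diagonal, the 519 new genes spread along the vertical axis (CYP4X1 at 2.97), and the 396 lost genes along the horizontal axis (NNMT at -3.75).

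The largest differences under AZ628 that favoured HT29 were in AMOT, CTSE, REG4, GSTA1 and SPP1. AMOT, angiomotin, a junction protein that binds the growth regulator YAP, read 9.49, 9.09 and 9.56 on the HT29 arrays and 4.22, 4.42 and 3.85 on the WiDr arrays. The groups lay far apart, and the difference of 5.22 (SE 0.14, adjusted p = 2.01e-14) was wider than with vehicle (4.19); over its 4 probe sets the difference ranged from 0.34 to 5.22. CTSE, cathepsin E, a protease of gastric and intestinal epithelium, read 10.18, 10.01 and 10.21 in HT29 and 5.17, 5.20 and 4.72 in WiDr. It was again high on every HT29 array, at 5.10 (SE 0.12), against 4.06 with vehicle. REG4, a secreted lectin of mucus and enteroendocrine cells, read 12.18, 12.12 and 12.10 against 7.32, 7.26 and 7.18. Both lines had lost signal under AZ628 and the gap stayed, at 4.88 (SE 0.07) under AZ628 and 4.66 with vehicle, a change of 0.22 that did not pass (SE 0.10, adjusted p = 0.207).

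SPP1, osteopontin, a secreted matrix protein, showed the reverse course. HT29 read 9.49, 9.30 and 9.29 under AZ628 and 11.33, 11.38 and 11.33 with vehicle, while WiDr read 4.71, 5.08 and 5.14 and then 5.15, 5.12 and 4.81. The gap between lines thus narrowed from 6.32 to 4.38 (change -1.94, SE 0.17, adjusted p = 9.48e-07), with the HT29 arrays above the WiDr arrays throughout. CEACAM6, a cell adhesion molecule of the carcinoembryonic antigen family, was higher in HT29 by 4.01 (SE 0.09) under AZ628 and 3.71 with vehicle.

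WiDr was higher for CYBRD1, RGCC, LOXL4, ALDH1A3, WNT11 and PON1. CYBRD1, the iron reductase of the duodenal brush border, read 3.83, 3.38 and 3.83 in HT29 and 9.0, 8.82 and 8.88 in WiDr. The HT29 values are near the floor of the array, taken here as signals under 4.72, the boundary of the dimmest 25% of genes. The difference of -5.22 (SE 0.12, adjusted p = 2.09e-15) was wider than with vehicle (-3.44), since the WiDr arrays had risen from 7.50, 7.33 and 7.36. RGCC, a regulator of the cell cycle, read 3.44, 3.78 and 3.93 in HT29 and 8.70, 8.57 and 8.45 in WiDr, and its difference of -4.86 (SE 0.14) was not distinguished from the -4.41 with vehicle (adjusted p = 0.229). WNT11, a Wnt ligand of the branch that does not act through β-catenin, read 5.50, 4.95 and 5.21 against 9.65, 9.38 and 9.49, a difference of -4.29 (SE 0.12) beside -3.79. In each of these 3 genes every WiDr array lay above every HT29 array.

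The kept class held most of the extreme values, with 113 of the 117 genes that differed at least 4-fold under AZ628 and all 36 that differed at least 8-fold. A kept difference need not be as large with vehicle: 60 of the 113 were at least 4-fold apart in both conditions, and 17 of the 36 at least 8-fold. Within the kept class, the direct test found 340 differences wider under AZ628, 250 narrower and 3533 that it did not tell apart. SOSTDC1, a secreted antagonist of BMP and Wnt signals, was a case whose estimate did not move: -3.66 (SE 0.11) under AZ628 and -3.66 with vehicle, a change of 0.00 (SE 0.15). Its HT29 arrays read 4.16, 4.71 and 4.49, and its WiDr arrays 8.12, 8.19 and 8.04. PLIN2, which coats lipid droplets, was likewise lower in HT29 by the same -3.07 in both conditions (SE 0.12 under AZ628). GATA2, a transcription factor best known from blood cells, differed by -3.50 and -3.69, and its 6 probe sets ranged from -3.50 to -0.07 under AZ628. On the HT29 side CLDN18, a claudin of stomach tight junctions, differed by 3.23 (SE 0.26) and 2.85, HLA-F, a non-classical MHC class I gene, by 1.78 and 1.82, and HOXB2 by 1.82 and 1.76. None of these 3 passed the direct test.

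Some kept differences were small with vehicle and large under AZ628. UNC93A, a membrane protein of intestine and kidney, read 3.35, 3.27 and 3.31 in HT29 with vehicle and 3.09, 3.13 and 3.00 in WiDr, all near the floor. Under AZ628 HT29 read 7.09, 7.0 and 7.21 and WiDr 3.49, 3.30 and 3.38. The signal rose in HT29 and stayed near the floor in WiDr, and the difference widened from 0.24 (adjusted p = 0.0404) to 3.71 (SE 0.09, adjusted p = 2.77e-15). PON1, paraoxonase, an esterase carried on lipoproteins, did the same for WiDr. It read 8.09, 7.93 and 8.0 in WiDr under AZ628 and 3.81, 3.87 and 3.8 with vehicle, while HT29 read 3.85, 3.82 and 3.70 and then 3.55, 3.17 and 3.39. Only WiDr was high, and only under AZ628, giving a difference of -4.21 (SE 0.08) against -0.45. SLC2A2, the glucose transporter GLUT2 of the basal enterocyte membrane, read 7.21, 7.14 and 6.81 in HT29 under AZ628 and 4.18, 4.26 and 4.32 in WiDr. Its difference of 2.80 (SE 0.09) compared with 0.68 with vehicle, and all 4 probe sets gave 1.84 or more under AZ628.

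ALDH1A3, an enzyme of retinoic acid synthesis, read 11.84, 11.84 and 11.76 in WiDr and 7.37, 7.46 and 7.38 in HT29 under AZ628. The lines did not overlap, and the difference had widened from -1.60 to -4.41 (SE 0.08), although its 5 probe sets ranged from -4.41 to 0.17. LOXL4, an enzyme that cross-links collagen, widened from -2.25 to -4.63 (SE 0.08). The glutathione transferases GSTA1 and GSTA2 widened on the HT29 side, GSTA2 from 0.78 to 3.47 (SE 0.14) and GSTA1 from 2.03 to 4.49 (SE 0.21). These close relatives can share probes, and GSTA1 gave -0.00 when probe sets that bind several transcripts were left out, so its difference cannot be assigned to that gene.

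New differences on the HT29 side were led by CYP4X1, SI, BNIP5 and KCNJ13. SI, sucrase-isomaltase, the brush border enzyme that splits sucrose and marks mature enterocytes, read 8.05, 7.97 and 7.79 in HT29 under AZ628 and 6.31, 5.64 and 5.65 in WiDr. With vehicle all 6 arrays lay between 2.72 and 2.95. SI was thus raised in both lines under AZ628 and further in HT29, by 2.07 (SE 0.13, adjusted p = 1.75e-09) against -0.08 with vehicle, and the change of 2.15 (SE 0.19) passed the direct test. In bulk RNA, more cells with the transcript and more transcript per cell cannot be told apart. CYP4X1, a cytochrome P450, read 6.13, 5.97 and 6.03 in HT29 and 3.31, 2.92 and 2.98 in WiDr, where it stayed at the level of the vehicle arrays (2.90, 3.04 and 2.95). Its new difference was 2.97 (SE 0.10). KCNJ13, an inward rectifier potassium channel, differed by 2.20 (SE 0.12) under AZ628 and 0.21 with vehicle. BNIP5 differed by 2.24 (SE 0.13) and 0.11, and UGT2A3, a glucuronosyltransferase, by 1.56 (SE 0.11) and 0.17.

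The SI promoter is shown because SI is a classical target of the intestinal transcription factor CDX2, whose own transcript was higher in HT29 under AZ628 by 0.53 (adjusted p = 0.000611) and by 0.27 with vehicle (adjusted p = 0.0621). Capitals mark TTTATG, a CDX-type motif searched on both strands, in the 250 bases before the start at chr3:165078497-165078746 on the minus strand (RefSeq, GRCh38.p14).
SI: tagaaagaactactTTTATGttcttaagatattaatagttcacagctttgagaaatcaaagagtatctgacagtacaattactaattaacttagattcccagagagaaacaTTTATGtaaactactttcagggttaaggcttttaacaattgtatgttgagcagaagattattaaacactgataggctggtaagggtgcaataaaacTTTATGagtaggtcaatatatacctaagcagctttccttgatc
The 3 matches begin 236, 139 and 43 bases before the start. The motif is in 7.62% of the 14425 promoters of measured genes, taken from 250 bases before to 50 after the start, in 22 of 228 promoters of genes at least 2-fold higher in HT29 (9.65%) and in 23 of 203 on the WiDr side (11.3%). A match is a description of the letters, not of a bound site. Whether CDX2 has a part in the SI difference was not tested.

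On the WiDr side the new differences were led by THBS1, TAC1, PDE5A and NPY1R. THBS1, thrombospondin, a secreted matrix protein, read 8.11, 8.13 and 8.11 in WiDr and 6.33, 5.99 and 6.39 in HT29 under AZ628, against 7.79, 7.58 and 7.56 and then 7.84, 7.85 and 7.81 with vehicle. HT29 was lower than with vehicle and WiDr was not, which gave a difference of -1.88 (SE 0.10, adjusted p = 2.61e-10) where there had been 0.19. PDE5A, the phosphodiesterase that degrades cyclic GMP, read 8.99, 9.03 and 8.98 in WiDr and 7.30, 7.46 and 7.16 in HT29, above vehicle in both lines and further in WiDr, with a difference of -1.69 (SE 0.08). NPY1R, a receptor for neuropeptide Y, differed by -1.61 (SE 0.10) and TAC1, the precursor of substance P, by -1.98 (SE 0.09). TAC1 read only 5.03, 4.82 and 4.71 in WiDr, and 2.84, 2.85 and 2.93 in HT29, so it was a low signal in WiDr beside one near the floor in HT29. HMOX1, heme oxygenase, was also new, at -1.06 (SE 0.08), with WiDr arrays at 8.93, 8.94 and 8.85 and HT29 arrays at 7.84, 7.81 and 7.88.

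Lost differences were led by CLDN2, TGFBR3, NNMT and FGF19. NNMT, which methylates nicotinamide, read 8.09, 8.12 and 7.89 in WiDr with vehicle and 4.25, 4.62 and 3.99 in HT29. Under AZ628 WiDr read 4.29, 4.47 and 4.0 and HT29 4.31, 4.01 and 4.49, so that the arrays of the lines overlapped. A difference of -3.75 (adjusted p = 7.68e-12) had become 0.02 (SE 0.16, adjusted p = 0.963). FGF19, the hormone of bile acid feedback, followed the same course, from -1.62 to 0.13 (SE 0.11), with all 6 AZ628 arrays between 4.98 and 5.38. RGS2, a brake on G protein signals, met at the top instead. It went from -1.02 to 0.12 (SE 0.07), with HT29 at 12.22, 12.11 and 12.21 and WiDr at 12.15, 12.12 and 11.92.

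CLDN2, the claudin that forms pores for cations, read 11.69, 11.53 and 11.48 in HT29 and 8.28, 8.27 and 8.43 in WiDr with vehicle. Under AZ628 HT29 read 7.06, 6.90 and 6.70, and WiDr 7.20, 5.68 and 7.05. The difference fell from 3.24 to 0.24 (SE 0.26, adjusted p = 0.544), and without the low WiDr array, replicate 2, it was -0.24 (adjusted p = 0.14). TGFBR3, betaglycan, a co-receptor for TGF-β, read 9.01, 8.83 and 8.99 in HT29 and 6.85, 6.79 and 6.81 in WiDr with vehicle. It fell in HT29 and rose in WiDr, to 7.90, 8.04 and 7.79 beside 7.73, 7.88 and 7.69, and the difference went from 2.13 to 0.14 (SE 0.07, adjusted p = 0.153).

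Among the 145 turned genes 55 were higher in HT29 (0.303% of all genes) and 90 higher in WiDr (0.496%) under AZ628. CEACAM1, an adhesion molecule of epithelial and immune cells, read 7.75, 7.67 and 7.53 in HT29 and 6.90, 6.78 and 6.88 in WiDr under AZ628, against 9.59, 9.59 and 9.65 and then 10.42, 10.34 and 10.34 with vehicle. It fell in both lines and further in WiDr, so that -0.76 became 0.80 (SE 0.06, adjusted p = 8.71e-09). MEX3A, an RNA-binding protein linked to intestinal stem cells, went from -0.54 to 0.96 (SE 0.07). SLC4A4, the sodium bicarbonate cotransporter, read 9.09, 9.30 and 8.97 in WiDr and 7.42, 7.52 and 7.30 in HT29 under AZ628. With vehicle HT29 had been the higher line, by 0.36, and under AZ628 the difference was -1.71 (SE 0.08). PTGS1, the constitutive cyclooxygenase, went from 0.52 to -1.50 (SE 0.06). ANO1, a calcium-activated chloride channel, had the largest change, from -1.38 to 1.49 (SE 0.08), but over its 3 probe sets the difference ranged from -0.17 to 1.49, and the one kept when probe sets that bind several transcripts were left out gave -0.17 (adjusted p = 0.202).

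**Figure D2:**
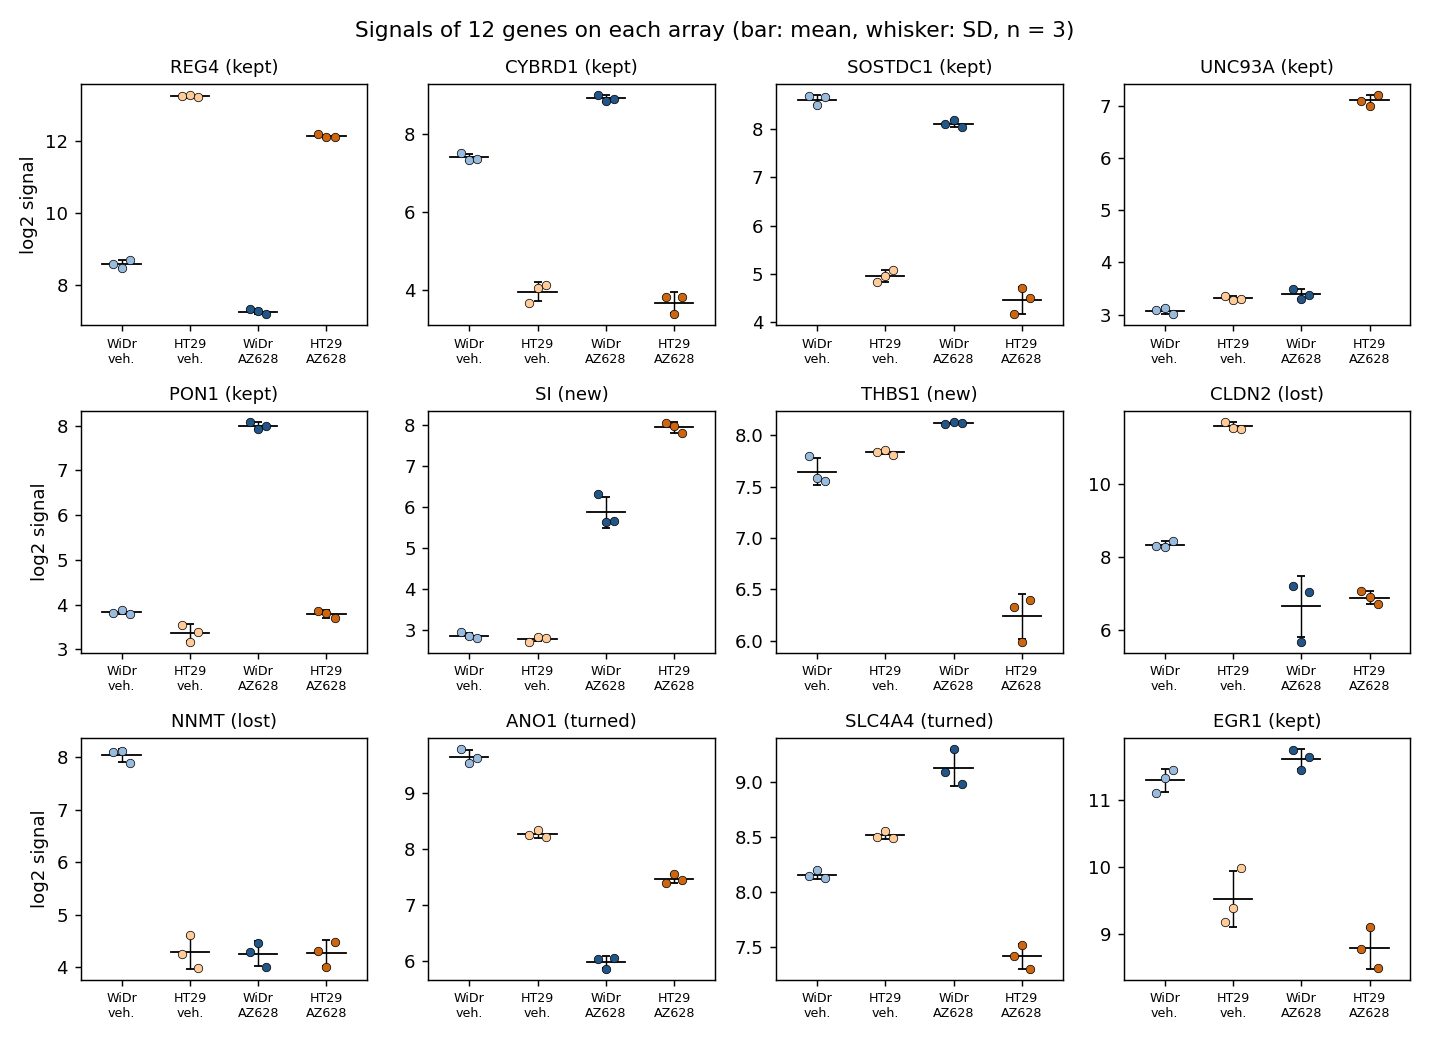
Log2 signal of 12 genes on each array, with the groups on the horizontal axis, points for arrays, bars for the mean of 3 arrays and whiskers for the SD. REG4, CYBRD1 and SOSTDC1 are apart in both conditions, UNC93A and PON1 part widely only under AZ628, SI and THBS1 are new, CLDN2 and NNMT meet under AZ628, and ANO1 and SLC4A4 change order.

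The median levels of the classes are given for each line. For the 246 new genes higher in HT29, the median level went from 8.47 with vehicle to 8.33 with AZ628 in HT29 and from 8.48 to 7.79 in WiDr. For the 273 new genes higher in WiDr it went from 8.09 to 8.24 in HT29 and from 8.05 to 8.74 in WiDr. The 232 lost genes formerly higher in HT29 went from 8.58 to 8.82 in HT29 and from 8.08 to 8.79 in WiDr, and the 164 formerly higher in WiDr from 8.32 to 7.92 and from 8.70 to 7.84. The effect of AZ628 was the larger one in WiDr for 65.9% of new, 73.7% of lost and 71.7% of turned genes, beside 57.1% of kept genes and 54.1% of all genes. For new genes the share was 75.8% of those higher in WiDr and 54.9% of those higher in HT29, whose median absolute effect was 0.61 in HT29 and 0.58 in WiDr. These classes were chosen with the same values, so the shares are a description.

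**Figure D3:**
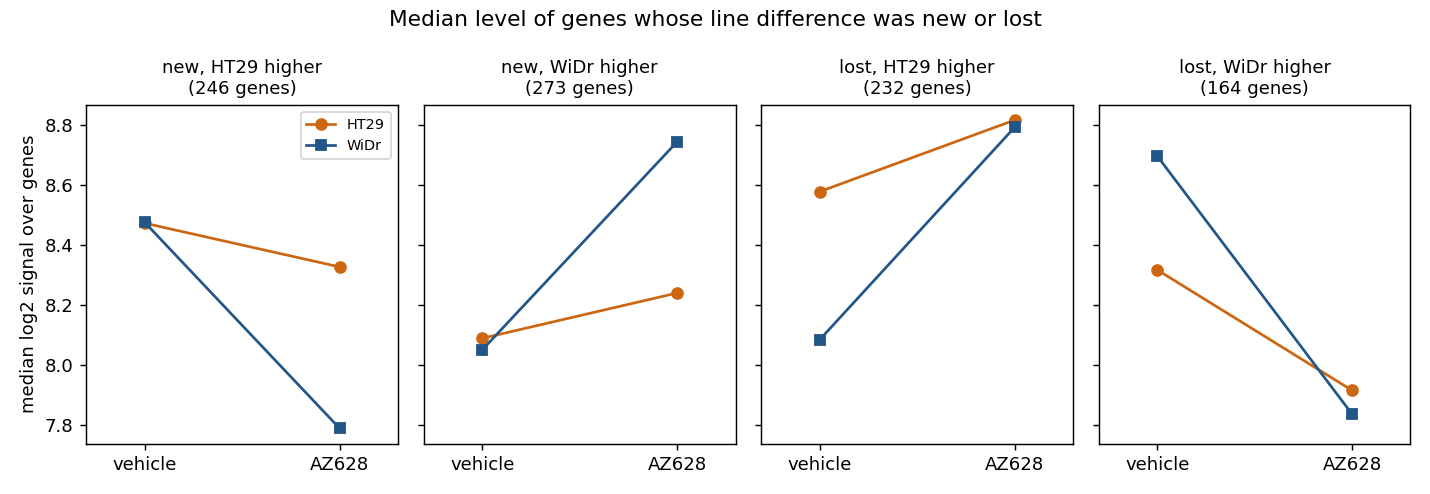
Median log2 signal over the genes of each class, with vehicle and with AZ628, for HT29 and WiDr, with new and lost genes split by the line in which they were higher. In the lost genes both lines end close together (8.82 and 8.79, 7.92 and 7.84), and in the new genes the median over genes goes from 8.48 to 7.79 and from 8.05 to 8.74 in WiDr and from 8.47 to 8.33 and from 8.09 to 8.24 in HT29.

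Transcripts known to follow ERK activity differed in both directions. Of 20 transcripts that follow ERK activity, 4 were higher in HT29 and 6 in WiDr under AZ628, with a median difference of 0.04 beside -0.00 over all genes. The HT29 share is near the 17.2% of all genes in each direction, and the WiDr share is above it. The other 10 of the 20 did not pass, so the share passing was above the 34.4% of all genes. EGR1, an immediate early transcription factor, read 8.77, 9.10 and 8.48 in HT29 and 11.75, 11.45 and 11.65 in WiDr. FOS, its partner among the first genes induced by ERK and not one of the 20, read 7.32, 7.31 and 7.23 against 11.20, 10.79 and 10.92. Every WiDr array lay above every HT29 array in both, with differences of -2.83 (SE 0.17) for EGR1 and -3.69 (SE 0.19) for FOS, and both gaps were wider than with vehicle (-1.78 and -2.18). In WiDr EGR1 had not fallen with AZ628. Its mean there was 11.62, above 11.30, the highest WiDr vehicle mean among the 20. Over the 20, the median effect of AZ628 was -2.29 in WiDr and -2.16 in HT29. The HT29 vehicle arrays were the more spread ones, from 8.42 to 9.56 for FOS. IER3, an early gene that protects from cell death, went the other way, at 1.23 (SE 0.08), as did the ERK pathway inhibitor SPRED2 at 0.87 (SE 0.06) and the ETS factor ETV5 at 0.72 (SE 0.12). ETV5 gave 0.08 (adjusted p = 0.742) without shared probe sets. DUSP6, the phosphatase that shuts off ERK, differed by -0.41 (SE 0.16, adjusted p = 0.0501). That call sat at the threshold: it passed with each array's median subtracted (adjusted p = 0.0374), with 3 other settings, and without HT29 replicate 1 (adjusted p = 0.0229) or WiDr replicate 2, where it was -0.67.

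MYC, the growth-promoting transcription factor, read 9.27, 9.01 and 9.14 in HT29 and 8.70, 8.50 and 8.68 in WiDr under AZ628. HT29 was thus higher by 0.51 (SE 0.08), while with vehicle it was lower (-0.33). CCND1, cyclin D1, had been lower in HT29 with vehicle (-0.40) and read 6.61, 6.62 and 6.60 against 6.46, 6.49 and 6.38 under AZ628. The HT29 arrays still lay above the WiDr arrays, but the difference of 0.17 (SE 0.07, adjusted p = 0.0724) did not pass; it did without WiDr vehicle replicate 1 (adjusted p = 0.0169) and with the mean of its probe sets (adjusted p = 0.0217). Of the NF-κB kinases, CHUK, which encodes IKKα, did not pass (0.10, SE 0.12), and IKBKB, which encodes IKKβ, was lower in HT29 in both conditions, at -1.0 (SE 0.11) and -0.98, a change of -0.02 (SE 0.15). NFKB1, a subunit of NF-κB, was a new difference at -0.40 (SE 0.05). Of 28 chemokine and NF-κB target genes 4 were higher in HT29 and 7 in WiDr, and the 39.3% that passed lie near the 34.4% of all genes. CXCR4, the receptor for the chemokine CXCL12, led at 2.05 (SE 0.14), and TNFAIP2, a target of tumour necrosis factor, differed by -1.38 (SE 0.08), or by -0.22 (adjusted p = 0.116) without shared probe sets. TNFAIP3, the A20 inhibitor of NF-κB, was new at -0.77 (SE 0.09), but its other probe set gave -0.27.

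Absorptive cell genes that passed were mostly higher in HT29 in both conditions. Of 28 measured members 11 were higher in HT29 and 2 in WiDr under AZ628, and 15 did not pass. The share passing was 46.4% beside 34.4% of all genes, and the median difference was 0.12. With vehicle 7 and 2 passed, with a median of 0.05. The direct test passed upward for 3 and downward for 4. Besides UNC93A, SLC2A2 and SI, the members higher in HT29 under AZ628 included FABP1, the liver-type fatty acid binding protein, at 3.24 (SE 0.10), narrower than the 4.01 with vehicle. VIL1, villin of the microvillus, was another, at 0.83 (SE 0.06). The exceptions were KRT20, a keratin of mature surface cells, at -0.94 (SE 0.07), and TM4SF4, a tetraspanin, at -2.02. Of 24 secretory genes 8 were higher in HT29 and 1 in WiDr, REG4 first among them, and the 37.5% that passed lie near the 34.4% of all genes. Among 17 intestinal transcription factors 5 were higher in HT29 and 4 in WiDr (52.9% passing, beside 34.4% of all genes). NR5A2 at 1.71 (SE 0.13) and FOXA2 at 1.2 (SE 0.10) were higher in HT29. FOXA1 at -1.27 (SE 0.06) and HNF4G at -1.07 (SE 0.12) were higher in WiDr. Of 18 Wnt and stem cell genes 6 were higher in HT29 and 4 in WiDr (55.6% passing, beside 34.4% of all genes). LGR5, the receptor that marks crypt stem cells, read 7.19, 6.73 and 7.16 in HT29 and 4.05, 4.99 and 4.45 in WiDr. Its difference had widened from 1.12 to 2.53 (SE 0.18), although the other of its 2 probe sets gave 0.30 and the widening did not pass with their mean (adjusted p = 0.12). CD44, the hyaluronan receptor and a Wnt target, widened from 0.64 to 1.75 (SE 0.09) with all 10 probe sets between 1.14 and 1.75, and DKK1, a secreted Wnt antagonist, was higher in WiDr at -1.93 (SE 0.08).

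Genes of detoxification and metal binding split by family. Of 23 conjugation enzymes 11 were higher in HT29 and 5 in WiDr (69.6% passing, beside 34.4% of all genes and 17.2% in each direction). PON1 was at the WiDr end. GSTA1 (4.49) was at the HT29 end, although that difference cannot be assigned to this gene, as described above. Of 21 targets of the oxidative stress factor NRF2, 6 were higher in HT29 and 8 in WiDr (66.7% passing), beside 8 and 1 with vehicle. AKR1B10, an aldo-keto reductase, was higher in HT29 by 2.95 (SE 0.06) and HMOX1 lower. All 5 passing metallothioneins of 7 (71.4% passing) were higher in WiDr, beside 2 with vehicle. MT2A, the main metal-binding member, read 11.72, 11.78 and 11.66 in WiDr and had a mean of 9.87 ± 0.11 (SD, n = 3) in HT29. The lines did not overlap, with a difference of -1.85 (SE 0.07) that was -0.87 with vehicle. MT1E differed by -1.42 (SE 0.07). Metallothionein probe sets can cross-hybridise, so the members are not independent.

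Interferon-stimulated genes leaned to WiDr in both conditions. Under AZ628 14 of 27 were higher in WiDr and 4 in HT29 (66.7% passing, beside 34.4% of all genes and 17.2% in each direction), with a median of -0.29, beside 12 and 6 with vehicle and a median of -0.18, and 15 of the 27 were kept. IFI44, an interferon-induced protein, read 7.88, 7.81 and 7.89 in WiDr and 5.44, 5.17 and 5.44 in HT29, a difference of -2.51 (SE 0.08) beside -2.46. IFITM1 and IFI27 differed by -1.45 (SE 0.17) and -1.26 (SE 0.08). Of 16 genes of MHC class I presentation, 7 were higher in HT29 and 3 in WiDr (62.5% passing), where with vehicle 9 and 0 had passed. PSMB9, a subunit of the immunoproteasome, was new at -1.09 (SE 0.12), though its 3 probe sets ranged from -1.09 to -0.08.

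Most cell cycle genes that passed were higher in WiDr under AZ628. Of 33 DNA replication genes 17 were higher in WiDr, 4 were higher in HT29 and 12 did not pass (63.6% passing, beside 34.4% of all genes and 17.2% in each direction), with a median of -0.21, beside 10 and 6 and a median of -0.02 with vehicle. The direct test passed downward for 7 of them and upward for 1. PCNA, the clamp of DNA polymerase, read 11.12, 10.97 and 11.05 in HT29 and 11.90, 11.90 and 11.87 in WiDr. Its difference widened from -0.40 to -0.84 (SE 0.06), its other probe set gave -0.12, and with the mean of both the widening did not pass (adjusted p = 0.777). PRIM1, a primase subunit, widened from -0.16 to -0.72 (SE 0.06), and MCM2, of the replicative helicase, was new at -0.54 (adjusted p = 1.87e-07). Of 27 mitosis genes 18 were higher in WiDr, 3 were higher in HT29 and 6 did not pass (77.8% passing), a median of -0.28, beside 9 and 3 with vehicle, but none passed the direct test, so a change of these differences with AZ628 was not shown. TTK, a kinase of the spindle checkpoint, differed by -0.85 (SE 0.08) and -0.61, and CCNA2, cyclin A2, by -0.71 (SE 0.10) and -0.39.

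Of 25 glycolysis genes 13 were higher in HT29 and 2 in WiDr (60.0% passing, beside 34.4% of all genes), with PDK1, the kinase that limits pyruvate entry to mitochondria, at 1.17 (SE 0.07) and hexokinase HK2 at 0.99 (SE 0.08), whose other probe set gave 0.05. Of 23 sterol synthesis genes 7 were higher in HT29 and 4 in WiDr (47.8% passing), where 12 and 2 had passed with vehicle, and no member reached 2-fold. Of 22 ATF4 targets 9 were higher in WiDr, 2 were higher in HT29 and 11 did not pass, beside 9 and 1 passing with vehicle. The WiDr share under AZ628 is above the 17.2% of all genes in each direction, and the HT29 share is below it. The share passing was above the 34.4% of all genes. Among 16 p53 targets BBC3, the death-promoting PUMA, was higher in WiDr, -1.34 (SE 0.06) beside -0.80. Of 12 cancer-testis genes 1 passed (8.33%, beside 34.4% of all genes). Their median level under AZ628 was near the floor, at 3.91 in HT29 and 3.69 in WiDr.

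Of the replication-dependent histone genes that passed, nearly all were higher in HT29, but 31 of 61 did not pass and the median difference was 0.19. The genes were singled out after their values were seen, as were the histones named here other than H2BC9. Of 61 measured histone genes 29 were higher in HT29 under AZ628 (47.5%) and 1 in WiDr, H2AC20 at -0.23 (SE 0.08, adjusted p = 0.0365), beside 17.2% in each direction over all genes. The H2AC20 call did not pass without HT29 replicate 2 (adjusted p = 0.212) or WiDr replicates 1 or 3. With vehicle the counts over histone genes were 19 and 2. At least 2-fold differences towards HT29 numbered 15 under AZ628 and 10 with vehicle. All 15 lie on chromosome 6, where 27 of 54 histone genes were higher in HT29. The direct test passed upward for 14 and downward for 2. H2BC4 read 7.61, 7.45 and 7.53 in HT29 under AZ628 and 4.85, 4.79 and 4.79 in WiDr, a difference of 2.72 (SE 0.13) beside 1.46 with vehicle. H2AC8 read 10.01, 10.01 and 10.29 against 7.24, 7.31 and 7.46, a difference of 2.77 (SE 0.16) beside 1.83. H4C8 read 7.61, 7.67 and 7.64 against 4.97, 4.81 and 4.94, a difference of 2.73 (SE 0.09) beside 0.42. No HT29 array overlapped a WiDr array in these 3 genes. H2BC9 turned, from -0.88 to 1.07 (SE 0.17), with HT29 rising from 4.17, 4.27 and 4.56 to 6.29, 6.11 and 6.42. H2BC12, the brightest of those named, narrowed from 2.64 to 1.91 (SE 0.08), a narrowing that did not pass with the mean of its probe sets (adjusted p = 0.189).

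Histone genes are near-identical copies, and probe sets can bind several of them. Of the 23 histone genes read through probe sets whose names mark shared transcripts, 16 were higher in HT29 under AZ628. Of the 38 others 13 were higher in HT29, 1 was higher in WiDr and 24 did not pass. Counts of single members are therefore uncertain, and H2BC4, H2BC8 and H4C8 were read through such shared probe sets, H2AC8 and H2BC12 not. Histone transcripts of this kind are made in S phase, as background. Of the 33 replication genes above, 17 were lower in HT29, 4 were higher and 12 did not pass. The part of the cell cycle in the histone differences was not tested.

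**Figure D4:**
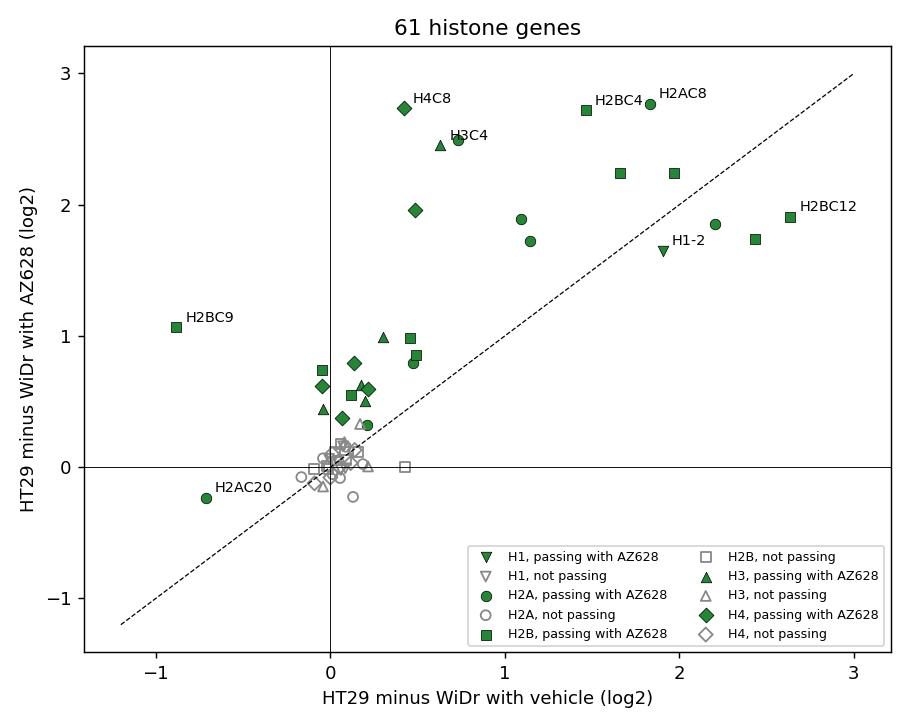
Line difference of the 61 histone genes with vehicle (horizontal axis) and with AZ628 (vertical axis), HT29 minus WiDr in log2 units. Marker shapes give the histone type, filled green markers are genes passing with AZ628 and open grey markers are genes not passing. The dashed line is where both differences are equal. H2BC4, H2AC8 and H4C8 lie above 2.7 under AZ628, H2BC9 lies left of 0 and above 0, and H2AC20 is the single gene that was higher in WiDr.

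Promoters of 3 H2B genes are shown because each was higher in HT29 under AZ628, as were 10 of 18 H2B genes while 8 did not pass, with capitals for the octamer ATTTGCAT, the binding motif of OCT-1, searched on both strands. The motif was picked after the values were seen. Each sequence is the 250 bases before the start (RefSeq, GRCh38.p14): H2BC4 at chr6:26123927-26124176 on the minus strand, H2BC8 at chr6:26216689-26216938 on the minus strand and H2BC9 at chr6:26251364-26251613 on the plus strand.
H2BC4: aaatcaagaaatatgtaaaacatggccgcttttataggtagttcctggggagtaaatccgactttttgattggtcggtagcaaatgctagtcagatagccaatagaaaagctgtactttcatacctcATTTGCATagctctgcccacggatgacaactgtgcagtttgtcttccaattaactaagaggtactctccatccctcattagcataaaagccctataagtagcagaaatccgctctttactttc
H2BC8: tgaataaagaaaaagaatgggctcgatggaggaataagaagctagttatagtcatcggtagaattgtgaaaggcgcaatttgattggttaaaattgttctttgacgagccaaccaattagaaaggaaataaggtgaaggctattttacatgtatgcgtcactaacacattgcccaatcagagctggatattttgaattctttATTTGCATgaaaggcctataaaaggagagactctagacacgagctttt
H2BC9: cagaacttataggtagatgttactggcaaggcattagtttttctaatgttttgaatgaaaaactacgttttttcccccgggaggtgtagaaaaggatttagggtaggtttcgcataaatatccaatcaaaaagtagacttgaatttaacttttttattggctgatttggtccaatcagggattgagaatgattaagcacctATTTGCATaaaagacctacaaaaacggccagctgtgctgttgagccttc
The octamer begins 123 bases before the start in H2BC4, 48 in H2BC8 and 49 in H2BC9. It is in 234 of 14425 promoters of measured genes (1.62%), in 14 of 18 H2B promoters, 11 of 14 H2A promoters and 1 of 24 promoters of H1, H3 and H4 genes. It did not separate the genes that differed: among H2A and H2B genes it is in 13 of 17 that were higher in HT29 under AZ628 (76.5%) and in 11 of 14 that did not pass (78.6%). H2BC8 differed by 2.24 (SE 0.20) under AZ628 and by 1.66 with vehicle.

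Kept differences were unevenly spread over the chromosomes. Of 18078 genes placed on a chromosome, 22.8% were kept, from 12.8% on chromosome 21 up to 40.7% on chromosome 8, 35.6% on chromosome 17 and 34.4% on chromosome 14. On chromosomes 8, 17 and 14 most went one way, whereas chromosome 21 held 15 higher in HT29 and 14 higher in WiDr. Chromosome 17 held 357 kept genes higher in HT29 and 19 higher in WiDr, chromosome 8 held 14 and 241, and chromosome 14 held 25 and 171. Chromosomes 4 (37 and 164), 7 (43 and 180), 19 (69 and 235) and 20 (18 and 106) also leaned to WiDr. Among those that leaned to HT29 were chromosomes 1 (268 and 83), 2 (258 and 57), 3 (165 and 59) and 22 (59 and 14). New differences made up 1.32% to 4.34% of the genes of each chromosome, with 11 higher in HT29 and 3 in WiDr on chromosome 17 and 3 and 13 on chromosome 8.

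**Figure D5:**
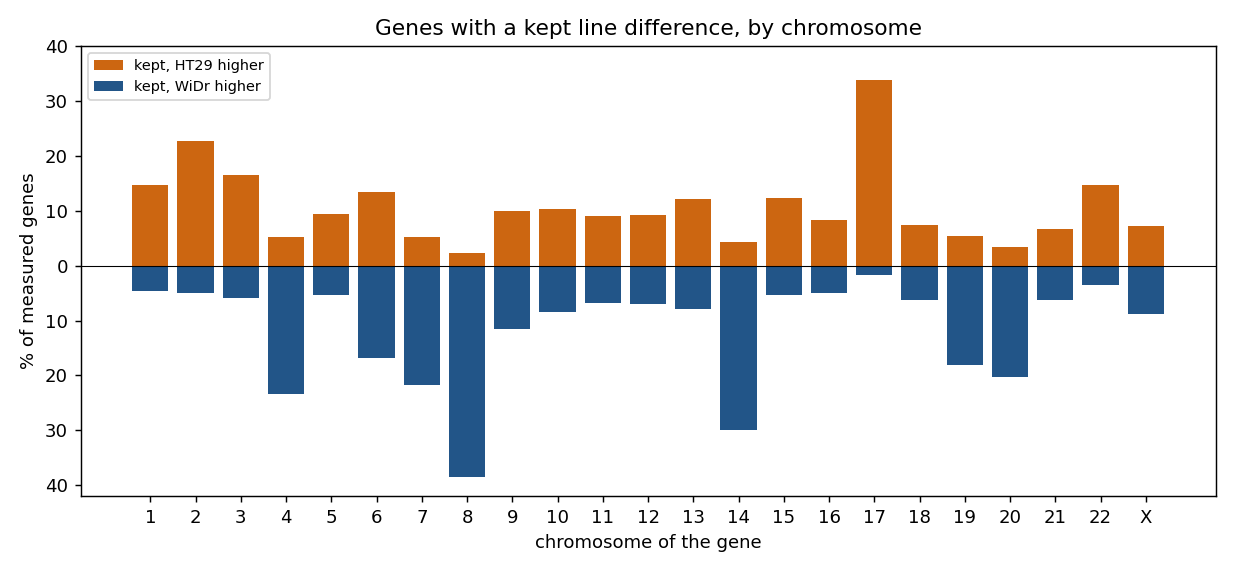
Share of measured genes on each chromosome whose line difference was kept, as percent, with bars above 0 for genes higher in HT29 and below 0 for genes higher in WiDr. Chromosome 17 stands out above 0 (33.8% of its genes) and chromosomes 8 (38.4%) and 14 (30%) below it.

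Some kept genes lay side by side. In the gene order of the RefSeq table, 99 runs of at least 4 adjacent measured genes were all kept with the same sign, 43 higher in HT29 and 56 higher in WiDr, and they held 458 of the 4122 kept genes among 18085 ordered genes. The longest had 8 genes on chromosome 7, from CUL1 to ZNF212 with the histone methyltransferase EZH2 among them, all higher in WiDr, with a median of -0.57 under AZ628 and -0.56 with vehicle. A run of 7 genes on chromosome 14, from DDHD1 to SAMD4A, had medians of -0.66 and -0.58, and one of 7 on chromosome 17, from RABEP1 to MIS12, had 0.49 and 0.48. On chromosome 6 the 7 genes from CAP2 to KDM1B were higher in HT29, by a median of 0.89 under AZ628 and 1.35 with vehicle.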

How the data were processed

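Total RNA (100 ng per array, per the labels' protocols) of 18 samples in 6 groups of 3 was hybridised to Affymetrix arrays. The deposited table holds log2 signals per probe set. The authors computed them by RMA, according to the submitters' processing notes (limma and R 3.0.2 are listed too). RMA gives all arrays the same distribution and shrinks low signals, so dim genes show too small a fold and a shift common to most genes cannot be seen. The labelling kit in the labels is for whole transcripts. Probe set names here have the form used on 3′ arrays, and that mismatch was not settled.

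Of 49395 probe sets (102 controls), 44988 carried 1 gene symbol, 1832 several and 2575 none or were controls. Each of 18132 genes was represented by its brightest probe set on average, and 11734 had several. limma 3.58.1 (R 4.3.3) fitted 6 group means to all 18 arrays (12 residual and 4.49 prior degrees of freedom), with eBayes and Benjamini-Hochberg adjustment per contrast, all two-sided; the fit was tested on simulated data. Adjusted p-values are limma's. The groups compared were sorted by label only. Figures used Python 3.11.15 and matplotlib 3.10.9.

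The members and the 35 gene lists (728 genes, 646 measured, the rest not analysed here) were chosen with earlier results of these data known. The rule named, per direction, the 12 largest differences under AZ628 among genes whose arrays did not overlap. Per direction it also named the 8 kept genes ranked by the smaller of their 2 differences. The 8 new, 8 lost and 6 turned genes per direction were those with the largest change between the conditions. Non-coding and provisional symbols were passed over in these. Up to 4 passing and 2 other members per list, and fixed pathway genes, were added. CDX2, TM4SF4, MCM2, PTPRC, COL1A1, the histones other than H2BC9 and the genes bounding chromosome runs lie outside it and were chosen after their values were seen. Alternatives left out dim genes, shared probe sets or single arrays, averaged or separated probe sets, renormalised, or changed the model. Promoters were matched by symbol for 14425 genes.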

Additional observations from a re-analysis of the deposited data

Results flagged for a closer look

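The line difference under AZ628 was itself different from that with vehicle in 1667 of 18132 genes (limma, direct test of the difference, adjusted p under 0.05), and each value here is that change on the log2 scale, AZ628 minus vehicle, of HT29 minus WiDr. Groups of 3 arrays are too small for a test of single outlying arrays.

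Among differences present in both conditions in the same direction, the change towards HT29 was largest in UNC93A (3.47), GSTA2 (2.69), GSTA1 (2.46), H4C8 (2.31) and SLC2A2 (2.12). It was 1.64 in AKR1B10, 1.41 in LGR5, 1.26 in H2BC4, 1.11 in CD44, 1.05 in CTSE, 1.03 in AMOT, 0.94 in H2AC8, 0.84 in CXCR4, 0.81 in NR5A2, 0.54 in FOXA2, 0.48 in H2AC20, 0.46 in IER3 and 0.38 in SPRED2. The FOXA2 change did not pass without any one of 6 arrays, HT29 AZ628 replicate 3, WiDr AZ628 replicates 2 and 3, HT29 vehicle replicate 1 and WiDr vehicle replicates 1 and 3. Towards WiDr it was -3.76 in PON1, -2.80 in ALDH1A3, -2.39 in LOXL4, -1.94 in SPP1, -1.78 in CYBRD1 and -1.50 in FOS. Smaller changes were -1.05 in EGR1, -0.97 in MT2A, -0.78 in FABP1, -0.73 in H2BC12, -0.57 in PRIM1, -0.54 in BBC3, -0.49 in both DKK1 and MT1E, and -0.44 in PCNA.

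Among new differences the change was 2.72 in CYP4X1, 2.15 in SI, 2.13 in BNIP5, 1.99 in KCNJ13 and 1.39 in UGT2A3, and -2.07 in THBS1, -1.75 in TAC1, -1.60 in PDE5A, -1.53 in NPY1R, -0.94 in HMOX1, -0.83 in TNFAIP3, -0.79 in PSMB9 and -0.34 in NFKB1. Among lost differences it was 3.76 in NNMT, 1.75 in FGF19, 1.14 in RGS2 and 0.56 in CCND1, and -2.99 in CLDN2 and -1.99 in TGFBR3. Among turned differences it was 2.87 in ANO1, 1.95 in H2BC9, 1.56 in CEACAM1, 1.51 in MEX3A and 0.84 in MYC, and -2.07 in SLC4A4 and -2.02 in PTGS1.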

How the results depend on the processing

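With every probe set as its own entry (44988 in place of 18132 genes, hence larger counts) 13092 passed under AZ628, 1133 of them at 2-fold, 12131 with vehicle and 2584 by the direct test, with 8300 kept, 631 lost, 859 new and 230 turned. With limma's treat at a minimum of 1.2-fold, a stricter test by construction, 2446 passed under AZ628, 2136 with vehicle and 426 by the direct test. The classes there held 1439 kept, 107 lost, 152 new and 11 turned genes. Of the main classes, 94 of the 519 new, 59 of the 396 lost and 11 of the 145 turned genes stayed in their class. With the other settings every count stayed within 1.5 times its value, but 2-fold differences went to 397 with a gene's probe sets averaged. There 64.7% of the new, 57.8% of the lost and 64.8% of the turned genes stayed in their class. Leaving out 1 array at a time gave 5587 to 6275 genes under AZ628, 553 to 581 at 2-fold, 5136 to 5850 with vehicle and 1309 to 1519 by the direct test, with 3765 to 3956 kept, 295 to 384 lost, 405 to 486 new and 115 to 140 turned.

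Same-numbered arrays did not pair: 3 of 18 same-numbered pairs of arrays had correlated deviations over 0.1 (range -0.29 to 0.36) and 4 of 18 matched best with their own number. With the replicate number as a block 6137 genes passed under AZ628, 5724 with vehicle and 1559 by the direct test, with 4046 kept, 357 lost, 490 new and 142 turned.

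For 92 named genes, 3230 of 3286 values under alternatives kept direction and side of the threshold, 38 no longer passed, 11 newly passed and 7 reversed. The difference under AZ628 became -0.17 in ANO1 and -3e-04 in GSTA1, and the change with AZ628 in GSTA1 -0.14, without probe sets that bind several transcripts; the cause was not tested. The lost differences lie near 0, and leaving out 1 array at a time gave -0.24 (without WiDr AZ628 replicate 2) to 0.52 in CLDN2 and -0.11 (without WiDr AZ628 replicate 3) to 0.14 in NNMT, where leaving out HT29 AZ628 replicate 1 or 3 also turned the sign. Signals under 4.72, the dimmest 25% of genes, are near the floor, so folds against them are compressed.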
